A study of Mus musculus with 28 samples.

Results

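The genes described are the nuclear-encoded subunits of the oxidative phosphorylation complexes, with cytochrome c and the complex I assembly factors that share the subunits' name stem, measured by RNA sequencing in mouse ear skin. A gene was a member if its identifier mapped to a protein-coding mouse gene whose symbol begins with Nduf, Uqcr, Cox4i, Cox5, Cox6, Cox7, Cox8 or Atp5, or if it was Sdha, Sdhb, Sdhc, Sdhd, Cyc1 or Cycs. The rule used names and no measured value, and it found 100 of 55414 genes in the table. Of these, 96 had enough reads to be tested, and the other 4 (a second Atp5po identifier, Cox7b2, Cox8c and Ndufb11b) had from 0 to 2 reads over all libraries.

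Wild type female C57BL/6J mice, aged 6-8 weeks at purchase, received RGRN-305, an inhibitor of the chaperone HSP90, or acetone on the ear, followed 100 minutes later by the phorbol ester TPA or acetone, and 4-mm punches of the ear were taken 4 hours after the challenge. The vehicle group (4 mice) received acetone at both steps, the RGRN-305 group (4 mice) 1 mg per ear of RGRN-305 and then acetone, the TPA group (10 mice) acetone and then 2.5 µg per ear of TPA, and the TPA+RGRN-305 group (10 mice) both agents. Each library came from 1 mouse. An ear punch holds skin of both sides with cartilage, fat and striated muscle, and in such bulk tissue fewer cells of a type and less RNA per cell cannot be told apart.

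Oxidative phosphorylation couples the transfer of electrons to the synthesis of ATP in the inner mitochondrial membrane. Complex I (the Nduf genes) and complex II (the Sdh genes) feed electrons to complex III (the Uqcr genes and Cyc1), cytochrome c (Cycs) carries them to complex IV (the Cox genes), and complex V (the Atp5 genes) uses the resulting proton gradient to make ATP. Complexes I, III, IV and V also contain subunits that mitochondrial DNA encodes, so both genomes supply their parts, and several Cox subunits exist as pairs of isoforms of which one is typical of striated muscle.

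The libraries held 16751780 to 24716640 assigned reads. Levels are given in CPM, counts divided by library size on a common scale, under 2 scalings, since the choice moved every member in the same direction. Library-total scaling divides each gene by all reads of the library, whereas TMM scaling (trimmed mean of M-values) further adjusts the total so that most genes keep their level between libraries. The TMM factor averaged 1.08 in the vehicle group, 1.06 in the RGRN-305 group, 0.889 in the TPA group and 1.06 in the TPA+RGRN-305 group. As a consequence, the 18991 genes tested had a median of -0.03 on the log2 scale under TMM and -0.31 under library totals for TPA versus vehicle, and 0.02 and 0.28 for TPA+RGRN-305 versus TPA. Both of these comparisons use the same TPA libraries, and the vehicle libraries are also shared between comparisons.

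Members together took up 0.689% of reads in the vehicle group, 0.734% in the RGRN-305 group, 0.579% in the TPA group and 0.693% in the TPA+RGRN-305 group. Under TMM the summed level of the members was 6351 CPM ± 260 (SD, n = 4) in vehicle ears, 6915 ± 749 (SD, n = 4) with RGRN-305, 6509 ± 587 (SD, n = 10) in TPA ears and 6519 ± 359 (SD, n = 10) after both agents, so the ranges of all groups overlapped. Under library totals the sum was 6886 CPM ± 247 in vehicle ears, 7343 ± 740 with RGRN-305, 5788 ± 534 with TPA and 6927 ± 340 with both agents. A single library stood apart in each of 2 groups. RGRN-305 mouse 1 had a TMM sum of 8035 CPM while the next in its group had 6609, and TPA mouse 4 had 7973 while the next had 6667. Both also had the highest skeletal muscle markers of the 28 libraries, with a median over 16 markers of 0.69 and 0.76 on the log2 scale relative to the vehicle mean.

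**Figure D1:**
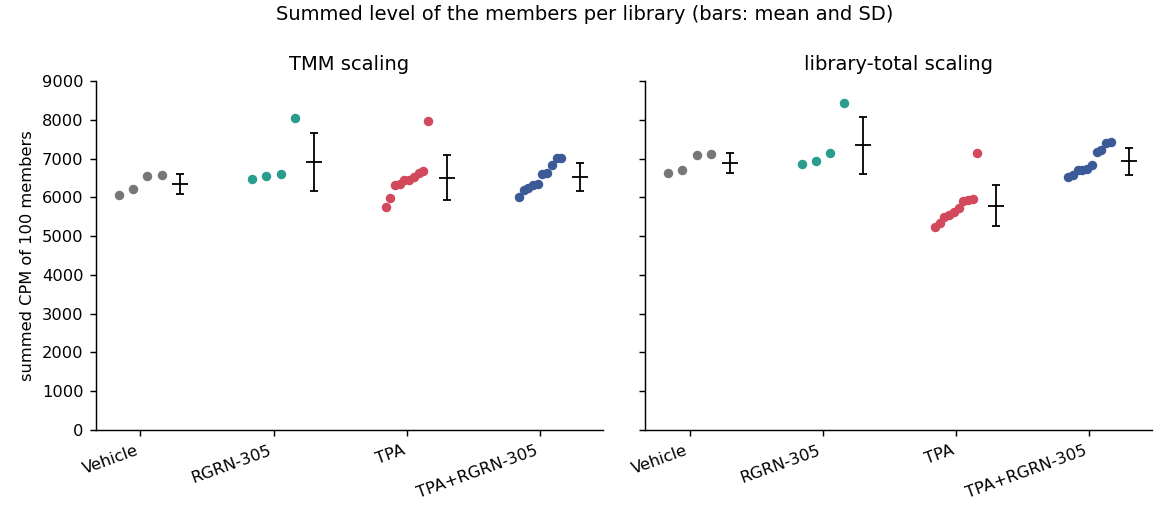
Summed level of the 100 members in each library (vertical axis, CPM) by group, under TMM scaling on the left and library-total scaling on the right, with mean and SD beside the points. The groups overlapped under TMM, and under library totals all TPA libraries but mouse 4, at 7134 CPM, were at or below 5958 CPM.

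Per kilobase of exon, which allows genes of different length to be compared, Atp5f1a, the alpha subunit of the catalytic head of complex V, had the highest level of all members at 214 TMM-scaled CPM per kilobase over all libraries. Cox4i1, the general isoform of subunit 4 of complex IV, followed at 200.4. High members of other classes were Uqcrfs1, the Rieske iron-sulfur protein of complex III, at 71.1, and the complex I accessory subunit Ndufb11 at 69.9. Of the exonic bases of Ndufb11 in GENCODE M39, 67.8% lie opposite Rbm10, so its level is uncertain. Sdha, the flavoprotein of complex II, had 50.2. The highest assembly factor was Ndufaf8 at 9.44 and cytochrome c, Cycs, had 6.27. In TPA versus vehicle, the most abundant members of complexes V, IV and II had small fold changes. Atp5f1a had a log2 fold change of 0.02 under TMM and -0.27 under library totals, Cox4i1 -0.04 and -0.33, and Sdha -0.08 and -0.37; under library totals all of these 3 lower values passed edgeR's quasi-likelihood test with Benjamini-Hochberg adjustment over all genes tested (adjusted p from 4.6e-06 to 0.00042), and under TMM none did (adjusted p from 0.22 to 0.81). Ndufb11 had -0.23 (adjusted p = 0.052) and -0.52 (adjusted p = 2.8e-05).

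Uqcrfs1 differed from these. It had 83.6, 81.4, 89.1 and 92.9 CPM in the vehicle mice and 118, 86.0, 87.4 and 86.8 in the RGRN-305 mice, 94.5 to 132 (median 104) with TPA and 84.7 to 105 (median 92.0) with both agents. Every TPA library was above every vehicle library under TMM. Its log2 fold changes of 0.30 (SE 0.08, adjusted p = 0.0014) with TPA and -0.21 (SE 0.06, adjusted p = 0.0023) with RGRN-305 added passed under TMM only, being 0.01 (adjusted p = 0.90) and 0.046 (adjusted p = 0.47) under library totals.

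TPA versus vehicle asked how the inflamed ear differed 4 hours after the challenge. Under TMM, 17 of the 96 members tested were higher (background: 31.6% of all genes tested) and 10 were lower (background 34.4%), with a median log2 fold change of 0.02. Without vehicle mouse 2 the number that were higher was 10. Under library totals, the direction of the family turned, with 4 higher (background 20.6%), 57 lower (background 52.5%) and a median of -0.27. Relative to the median of all genes the members stood 0.04 higher under either scaling. TPA therefore left the members as a family near the middle of all genes, and the members described next are those that departed from it.

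Passing edgeR's test in the same direction under both scalings were 4 members that rose (background 20.6%) and 10 that fell (background 34.4%). Those that rose were Ndufaf4, Cycs, Cox7c and Atp5mk. Those that fell were Cox6b2, Ndufv3, Ndufa4l2, Cox7a2l, Ndufaf3, Ndufaf7, Ndufs7, Atp5if1, Ndufb10 and Atp5f1c. When the groups were further required not to overlap under either scaling, Ndufaf4 and Cycs remained among those that rose (background 15.3%) and Cox6b2, Ndufv3, Ndufa4l2, Cox7a2l and Ndufaf7 among those that fell (background 23.6%). Each of these counts was below the share of all genes that met the same criterion.

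**Figure D2:**
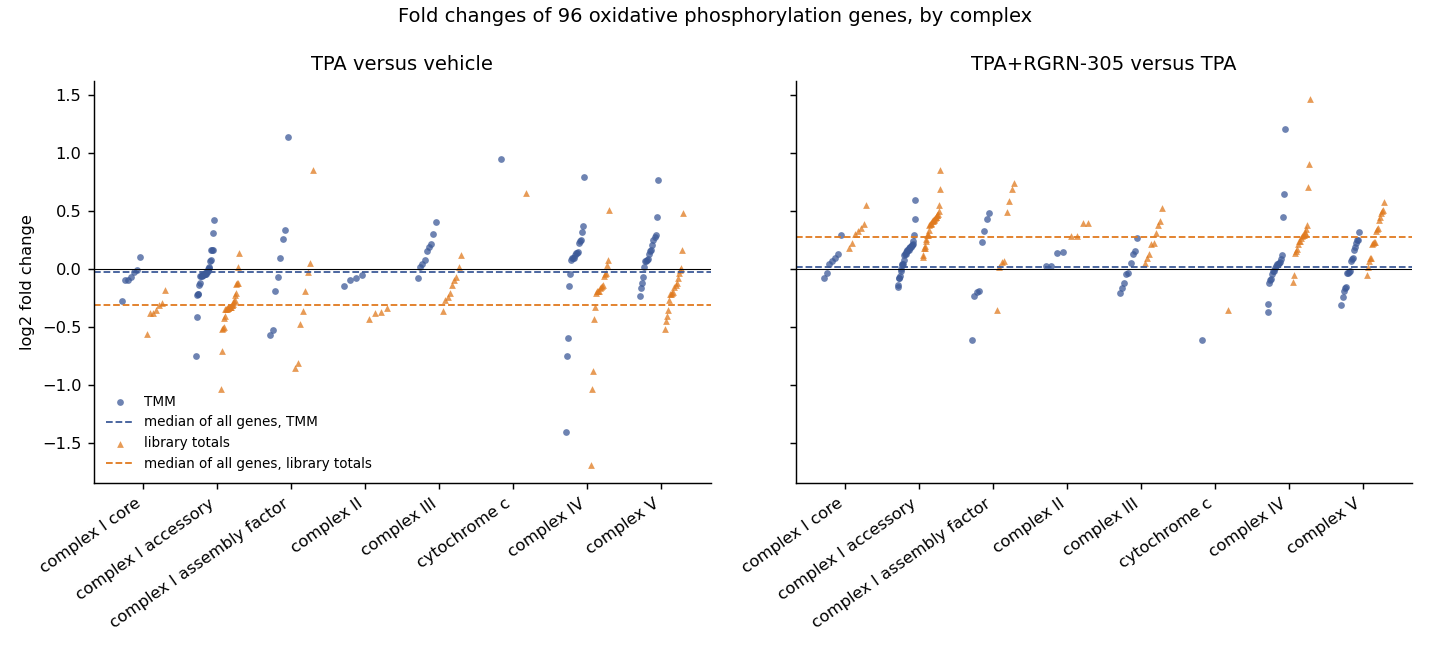
Log2 fold change of each of the 96 members (vertical axis) by complex, for TPA versus vehicle on the left and TPA+RGRN-305 versus TPA on the right, under TMM (blue circles) and library totals (orange triangles), with dashed lines at the median of all genes. Most members lay close to the line of their scaling (medians of all genes -0.03 and -0.31 on the left, 0.02 and 0.28 on the right), and single members of complexes I, IV and V and cytochrome c lay far from it.

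TPA+RGRN-305 versus TPA asked how the inhibitor changed the inflamed ear. Under TMM, 27 members were higher (background 33.0%) and 13 lower (background 32.6%), with a median of 0.06. Under library totals, 77 were higher (background 55.4%) and 2 lower (background 19.3%), with a median of 0.31. The members again stood 0.04 above the median of all genes under either scaling. Under both scalings 27 passed as higher (background 33.0%) and 2, Cycs and Ndufaf4, as lower (background 19.3%). Only Ndufv3 passed as higher with no overlap under either scaling (background 11.7%), and no member did so as lower (background 8.9%), although Cycs and Ndufaf4 passed edgeR's test there.

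Ndufaf4, an assembly factor that acts early in building complex I, had the largest rise with TPA. Its TMM level was 15.9, 15.7, 15.2 and 13.6 CPM in the vehicle mice and 20.9, 18.5, 14.8 and 14.99 in the RGRN-305 mice. In the TPA group it ranged from 25.7 to 37.8 (median 33.4), and in the TPA+RGRN-305 group from 17.2 to 27.3 (median 20.9). Every TPA library was thus above every vehicle and RGRN-305 library, and the TPA+RGRN-305 libraries lay between, overlapping the lowest TPA libraries but not the vehicle libraries. The level was 2.20-fold that of vehicle (log2 1.14, SE 0.11, adjusted p = 2.5e-10), and 0.85 on the log2 scale under library totals (adjusted p = 1.5e-08). With RGRN-305 added it fell by 0.61 on the log2 scale relative to TPA (SE 0.08, adjusted p = 5.9e-08) under TMM, and by 0.36 (adjusted p = 8.5e-05) under library totals.

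Cycs, cytochrome c, carries electrons to complex IV and on release into the cytosol takes part in apoptosis. It had 14.2, 14.98, 14.2 and 15.7 CPM in the vehicle mice and 24.3, 17.1, 14.2 and 15.2 in the RGRN-305 mice. With TPA the range was 23.0 to 33.3 (median 28.6) and with both agents 13.3 to 21.8 (median 19.3). All TPA libraries exceeded all vehicle and all TPA+RGRN-305 libraries, whereas RGRN-305 mouse 1, one of the libraries that stood apart, reached the TPA range. The rise with TPA was 1.92-fold (log2 0.94, SE 0.13, adjusted p = 9.8e-08; 0.65 under library totals, adjusted p = 1.7e-05), and with RGRN-305 added Cycs fell by 0.62 (SE 0.09, adjusted p = 4.9e-07) under TMM and by 0.36 (adjusted p = 0.00054) under library totals, where the ranges overlapped.

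Cox7c, a small structural subunit of complex IV, had 7.84, 10.2, 10.9 and 9.79 CPM in the vehicle mice and 11.9, 9.57, 10.3 and 11.6 in the RGRN-305 mice. TPA libraries ranged from 11.7 to 19.3 (median 16.8) and TPA+RGRN-305 libraries from 10.6 to 16.1 (median 12.6). The TPA and vehicle groups did not overlap under TMM, and they did under library totals. TPA raised Cox7c 1.73-fold (log2 0.79, SE 0.12, adjusted p = 5.8e-07; 0.50 under library totals, adjusted p = 0.00027). The difference on adding RGRN-305 depended on the scaling: it was -0.37 (adjusted p = 0.0003) under TMM and -0.11 (adjusted p = 0.23) under library totals.

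Atp5mk and Atp5mg, small membrane subunits of complex V, were the next members in order of fold change. Atp5mk had 3.69, 3.81, 5.17 and 3.55 CPM in vehicle ears and 4.58 to 9.84 (median 7.25) with TPA, so that the groups overlapped, with a log2 fold change of 0.76 (SE 0.19, adjusted p = 0.00057) under TMM and 0.48 (adjusted p = 0.022) under library totals. Because 44.9% of its annotated exonic bases lie opposite Pdcd11 and Taf5, and the strand setting of the counting was not stated, the value of Atp5mk is uncertain. Pdcd11 and Taf5 themselves rose by 0.83 and 1.06. Only reads assigned to a single gene were counted, so whether and in which direction the overlap moved Atp5mk is not known. Atp5mg had a log2 fold change of 0.44 (adjusted p = 0.00013) under TMM and 0.16 (adjusted p = 0.12) under library totals, and so passed under TMM only.

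The proximal promoters of the 3 members with the largest rise are shown with that of Ndufv3, the member that fell with the smallest adjusted p under TMM, so that their sequence can be set beside the opposite responses, a choice made after their values were seen. The sequences are from RefSeq, build GRCm38.p6, and run from 250 bases before the annotated start to 50 after it: chr4:24897833-24898132 on the plus strand for Ndufaf4, chr6:50566520-50566819 on the minus strand for Cycs, chr13:86046746-86047045 on the minus strand for Cox7c and chr17:31519865-31520164 on the plus strand for Ndufv3. Capitals mark matches on either strand to 4 words of 7 letters: GCATGCG for NRF1, CCGGAAG for ETS factors such as GABP, AAGATGG for YY1 and AAGGTCA for the estrogen-related receptors, all of which are known regulators of respiratory chain genes.
Ndufaf4: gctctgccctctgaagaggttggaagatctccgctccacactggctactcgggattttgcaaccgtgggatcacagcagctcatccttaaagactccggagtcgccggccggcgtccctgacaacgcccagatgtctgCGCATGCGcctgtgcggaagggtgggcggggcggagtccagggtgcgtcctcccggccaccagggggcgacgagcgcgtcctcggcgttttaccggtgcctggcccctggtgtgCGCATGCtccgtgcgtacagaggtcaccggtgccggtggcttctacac
Cycs: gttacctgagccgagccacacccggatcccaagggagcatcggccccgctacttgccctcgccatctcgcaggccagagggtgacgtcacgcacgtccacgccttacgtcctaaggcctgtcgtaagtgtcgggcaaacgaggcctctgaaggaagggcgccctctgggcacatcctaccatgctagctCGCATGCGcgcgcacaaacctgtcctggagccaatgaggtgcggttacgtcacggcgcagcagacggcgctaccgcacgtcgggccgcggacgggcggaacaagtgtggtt
Cox7c: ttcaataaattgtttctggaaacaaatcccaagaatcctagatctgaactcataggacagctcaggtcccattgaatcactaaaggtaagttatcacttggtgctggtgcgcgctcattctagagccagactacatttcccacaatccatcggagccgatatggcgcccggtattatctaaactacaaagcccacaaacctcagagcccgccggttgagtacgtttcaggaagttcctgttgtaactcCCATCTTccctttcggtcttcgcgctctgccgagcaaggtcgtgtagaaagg
Ndufv3: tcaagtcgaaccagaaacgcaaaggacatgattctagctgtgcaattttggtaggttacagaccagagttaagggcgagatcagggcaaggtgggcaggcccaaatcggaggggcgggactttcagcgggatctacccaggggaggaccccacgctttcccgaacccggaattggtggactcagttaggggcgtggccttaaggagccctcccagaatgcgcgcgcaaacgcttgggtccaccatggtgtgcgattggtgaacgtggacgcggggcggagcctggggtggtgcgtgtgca

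Ndufaf4 and Cycs each held the NRF1 word on both strands in the palindrome CGCATGCG, and Ndufaf4 held it once more nearer the start. Cox7c held the YY1 word on the reverse strand close to its start, and none of the 4 words was found in this window of Ndufv3, which says nothing of the factors themselves. Promoters were found for 77 members, in 82 windows. The NRF1 word was in 17.1% of these windows and in 3.58% of all 32851 windows of the same length, the ETS word in 22.0% and 8.86%, the YY1 word in 14.6% and 6.34%, and the estrogen-related receptor word in 9.76% and 4.72%. Among members with a promoter, 3 of the 13 that were higher with TPA under TMM held the NRF1 word (Atp5mg, Cycs and Ndufaf4), as did 0 of the 8 that were lower and 11 of the 55 that did not pass. These matches are a description of letters and were not tested as binding sites.

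**Figure D3:**
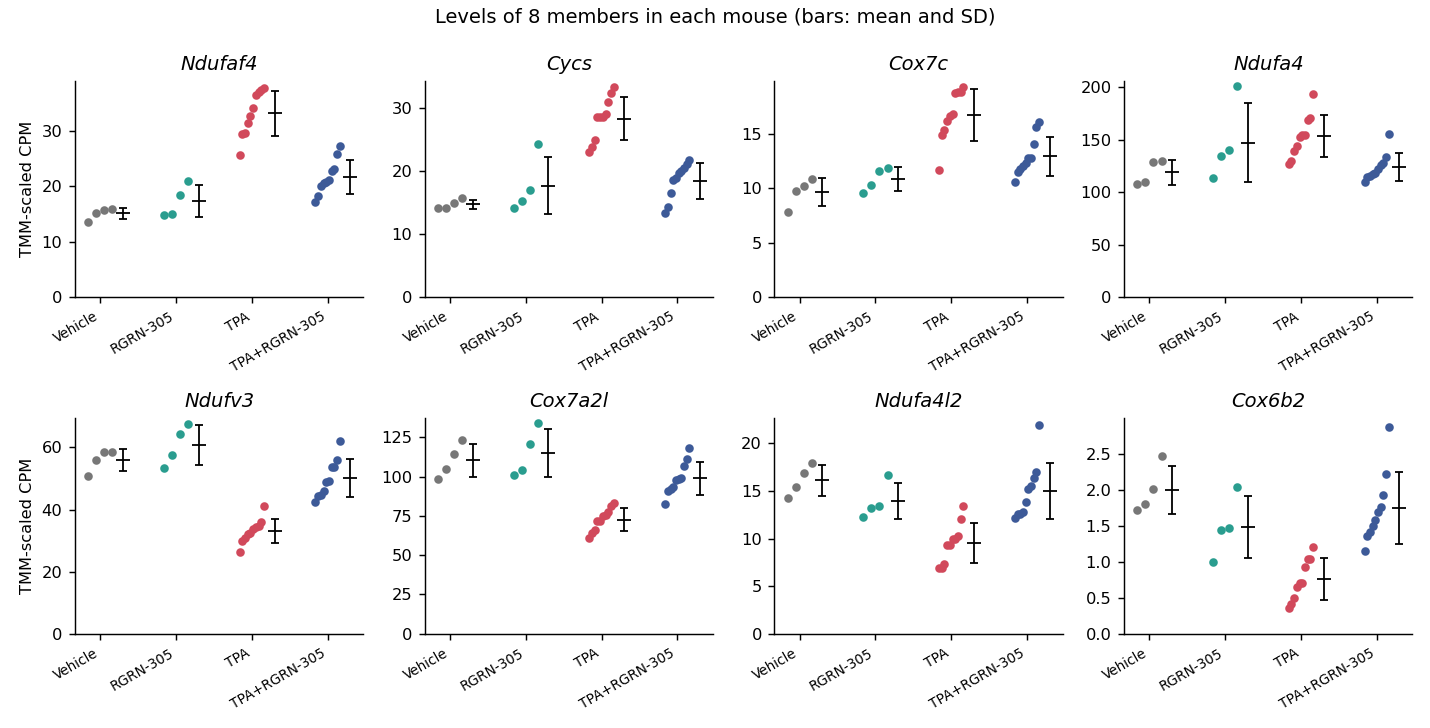
TMM-scaled CPM of 8 members (vertical axes from 0) in every mouse by group, with mean and SD beside the points. In the upper row TPA mice were high (Ndufaf4 at 25.7 to 37.8 CPM against 13.6 to 15.9 with vehicle), in the lower row they were low (Ndufv3 at 26.4 to 41.2 against 50.7 to 58.5), and TPA+RGRN-305 mice lay between or near the vehicle mice.

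Among the members that fell, Ndufv3, an accessory subunit of the NADH-oxidising arm of complex I, had 50.7, 56.0, 58.5 and 58.5 CPM in the vehicle mice and 64.4, 53.4, 67.5 and 57.6 in the RGRN-305 mice. It ranged from 26.4 to 41.2 (median 33.1) with TPA and from 42.4 to 62.2 (median 49.0) with both agents. No TPA library reached the lowest library of any other group. Ndufv3 fell by 0.75 on the log2 scale with TPA (SE 0.09, adjusted p = 6.1e-09; by 1.04 under library totals, adjusted p = 6.2e-12), and it was 1.51-fold higher with RGRN-305 added (log2 0.59, SE 0.07, adjusted p = 5.5e-09; 0.85 under library totals, adjusted p = 3.0e-12).

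Cox7a2l, grouped here with complex IV by its name, had 98.6, 105, 123 and 114 CPM in the vehicle mice and 134, 101, 121 and 104 in the RGRN-305 mice. With TPA it ranged from 61.1 to 83.4 (median 73.4) and with both agents from 82.4 to 118 (median 98.1). The TPA range ended below the vehicle range and just touched that of the TPA+RGRN-305 group. It fell by 0.60 with TPA (SE 0.08, adjusted p = 1.7e-07) and was higher by 0.45 with RGRN-305 added (SE 0.07, adjusted p = 4.3e-07), and by -0.89 and 0.70 under library totals.

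Cox6b2, known as the testis isoform of subunit 6b of complex IV, showed the largest fold change of any member at a very low level. It had 1.71, 1.80, 2.46 and 2.00 CPM in the vehicle mice and 0.99, 1.45, 2.04 and 1.47 in the RGRN-305 mice. With TPA it ranged from 0.356 to 1.21 (median 0.702) and with both agents from 1.15 to 2.87 (median 1.63), which rests on 162 reads with vehicle, 125 with RGRN-305, 133 with TPA and 376 with both agents. Vehicle and TPA libraries did not overlap. It fell by 1.41 with TPA (SE 0.24, adjusted p = 5.2e-06; by 1.69 under library totals) and was 2.30-fold higher with RGRN-305 added (log2 1.20, SE 0.19, adjusted p = 2.2e-06; 1.46 under library totals).

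Of the assembly factors, Ndufaf7, a methyltransferase of the mitochondrial matrix, had 19.5, 22.1, 20.2 and 20.3 CPM in the vehicle mice, 11.5 to 17.4 (median 14.2) with TPA and 16.5 to 21.3 (median 20.2) with both agents. TPA lay below vehicle in every library, with a fall of 0.52 (SE 0.08, adjusted p = 5.6e-07), and RGRN-305 raised it by 0.48 (SE 0.06, adjusted p = 2.8e-08) relative to TPA. Ndufaf3, another assembly factor, had 5.45, 9.15, 9.43 and 7.60 CPM in the vehicle mice and 4.43 to 6.77 (median 5.11) with TPA. It fell by 0.57 (SE 0.13, adjusted p = 0.00035), although vehicle mouse 1 lay within the TPA range. Within the same class, Ndufaf4 rose, so the 8 assembly factors tested did not all move in the same direction. With TPA, 3 were higher and 2 lower under TMM (backgrounds 31.6% and 34.4%), and 1 and 5 under library totals (backgrounds 20.6% and 52.5%).

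Atp5if1, the peptide that inhibits ATP hydrolysis by complex V, had 47.1, 56.6, 60.6 and 58.7 CPM in the vehicle mice and 34.2 to 54.4 (median 49.1) with TPA, and the groups overlapped. Its fall of 0.23 with TPA was close to the threshold (SE 0.10, adjusted p = 0.039; by 0.52 under library totals, adjusted p = 1.6e-05) and missed it in 7 of 18 alternative fits: without vehicle mouse 2, 3 or 4 (adjusted p = 0.080, 0.14 and 0.11), without RGRN-305 mouse 3 (0.059), with relative log expression factors (0.058), with DESeq2 (0.078) and with the replicate block (0.14). With RGRN-305 added it had 51.4 to 68.2 CPM (median 58.5), higher than with TPA by 0.32 (SE 0.08, adjusted p = 0.00046).

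By complex, the counts under TMM and library totals differed throughout, and they are given in that order, to be read against the shares of all genes (31.6% higher and 34.4% lower under TMM, 20.6% and 52.5% under library totals). With TPA, 1 of 30 complex I accessory subunits was higher and 2 were lower under TMM, against 0 and 24 under library totals. Of 7 core subunits of complex I, 0 were higher and 1 lower, against 0 and 7. None of the 4 complex II subunits passed under TMM (0 at an unadjusted p under 0.05 and 0 with DESeq2), and all 4 were lower under library totals, with log2 fold changes of -0.43 to -0.34. Complex III had 3 of 9 higher (Uqcrb, Uqcrfs1 and Uqcrq) and 0 lower, against 0 and 3. Complex IV had 4 of 19 higher and 3 lower, against 1 and 7, and complex V 5 of 18 higher and 2 lower, against 1 and 7.

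With RGRN-305 added to TPA, 11 of the 30 accessory subunits of complex I were higher and 0 lower under TMM, and 28 and 0 under library totals, where the shares of all genes were 33.0% and 32.6% under TMM and 55.4% and 19.3% under library totals. The core subunits had 2 higher and 0 lower, and 7 and 0. Complex II had 1 higher, Sdhc (log2 0.14, SE 0.06, adjusted p = 0.031), and all 4 were higher under library totals. The iron-sulfur subunit Sdhb had 59.8 to 74.2 CPM with vehicle, 58.3 to 79.7 with TPA and 58.9 to 76.6 with both agents, and the membrane anchor Sdhd 47.1 to 57.6, 38.0 to 61.7 and 45.9 to 58.0, so that their groups overlapped. Complex III had 2 higher (Uqcr11 and Uqcrc1) and 2 lower (Uqcrfs1 and Uqcrc2), and 7 and 0. Complex IV had 3 higher and 2 lower, and 14 and 0, and complex V had 4 higher and 5 lower, and 13 and 0. Cyc1, the cytochrome c1 of complex III, had a log2 fold change of 0.08 (adjusted p = 0.25) for TPA versus vehicle and 0.05 (adjusted p = 0.35) for TPA+RGRN-305 versus TPA under TMM, and under library totals it was -0.21 and 0.30, both past the test.

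Isoform pairs give a measure that does not depend on the scaling, because both genes are read in the same library. The log2 ratio of their counts was compared for 5 pairs in 4 comparisons with exact or 100000-resample permutation tests, two-sided, adjusted over the 20 tests. Only the ratio of Ndufa4l2 to Ndufa4 passed, and the value of Ndufa4l2 is uncertain because its exons overlap those of Shmt2. Both encode related subunits of complex IV, and Ndufa4l2 is known as a target of the hypoxia-inducible factors. The log2 ratio was -2.83, -2.92, -2.93 and -2.86 in the vehicle mice and -3.59, -3.07, -3.45 and -3.41 in the RGRN-305 mice, -4.54 to -3.43 (median -3.99) with TPA and -3.60 to -2.60 (median -3.07) with both agents. TPA and vehicle did not overlap and differed by -1.14 (exact permutation p = 0.0020, the smallest that 4 against 10 mice allow, adjusted p = 0.020). Without any 1 vehicle mouse the adjusted exact permutation p was 0.070. That value was fixed in advance by the smaller number of mice, because the groups still did not overlap. TPA+RGRN-305 exceeded TPA by 0.96 (permutation p = 4.0e-05, adjusted p = 0.00080), with overlapping ranges. RGRN-305 and vehicle did not overlap either (difference -0.49), but with 4 against 4 mice the exact permutation p of 0.029 became 0.14 after adjustment.

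Both genes of the pair contributed. Ndufa4l2 had 15.4, 14.3, 16.9 and 17.9 CPM in the vehicle mice and 16.7, 13.5, 12.3 and 13.2 in the RGRN-305 mice, 6.90 to 13.4 (median 9.64) with TPA and 12.1 to 21.9 (median 14.5) with both agents. It fell by 0.75 with TPA (SE 0.14, adjusted p = 2.8e-05; by 1.03 under library totals) and was higher by 0.64 with RGRN-305 added (SE 0.11, adjusted p = 7.8e-06; 0.90 under library totals). Ndufa4 had 110, 108, 129 and 129.7 CPM in the vehicle mice, 127 to 193 (median 154) with TPA and 110 to 156 (median 120) with both agents. Its log2 fold changes of 0.37 (adjusted p = 0.0045) and -0.31 (adjusted p = 0.0015) passed under TMM and not under library totals, where they were 0.08 and -0.05. Of the annotated exonic bases of Ndufa4l2, 63.3% lie opposite Shmt2, and the strand setting of the counting was not stated, so the level of Ndufa4l2 and its ratio to Ndufa4 are uncertain. Shmt2 had a log2 fold change of -0.15 (adjusted p = 0.11) with TPA and 0.18 (adjusted p = 0.011) with RGRN-305 added.

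**Figure D4:**
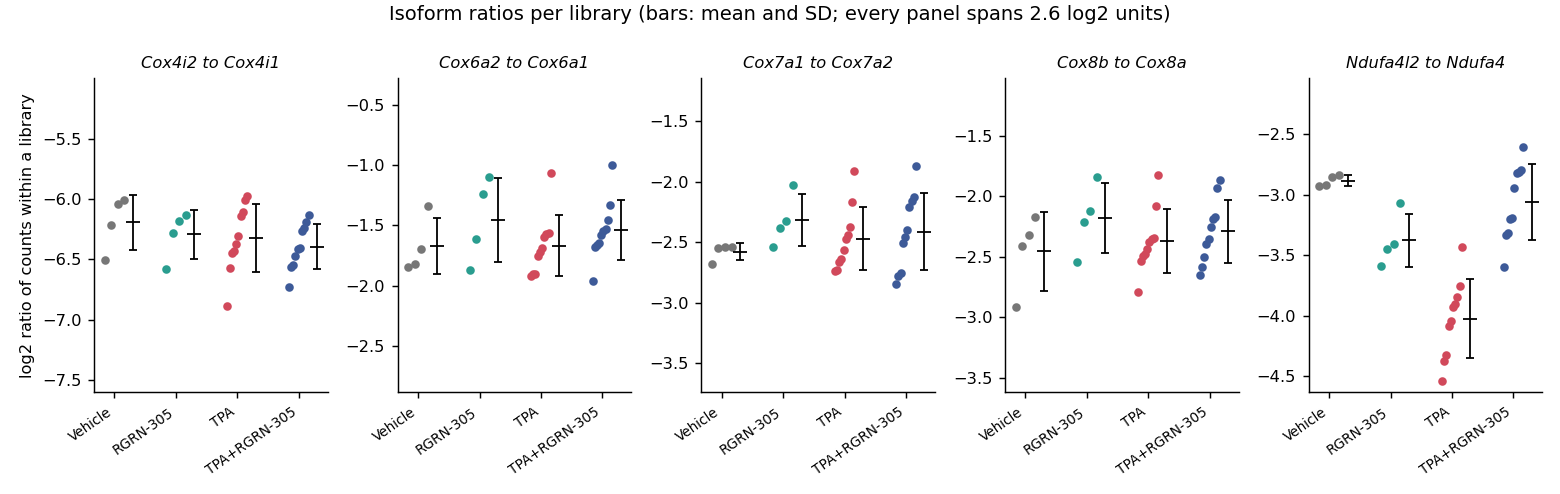
Log2 ratio of the counts of 5 isoform pairs (vertical axes, each spanning the same width) in every library by group, with mean and SD beside the points. The ratio of Ndufa4l2 to Ndufa4 was -4.54 to -3.43 in TPA mice against -2.93 to -2.83 in vehicle mice, and the other pairs overlapped between these groups.

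The pairs with a muscle isoform (Cox6a2 to Cox6a1, Cox7a1 to Cox7a2 and Cox8b to Cox8a) and the pair Cox4i2 to Cox4i1, of which Cox4i2 is the isoform known for lung and hypoxia, did not pass in any comparison (adjusted p from 0.14 to 0.95). Of the exonic bases of Cox8b in GENCODE M39, 51.5% lie opposite Psmd13, which averaged 110.4 CPM in vehicle and 118 in TPA libraries. The overlapped stretch, 1231 bases, is longer than the deposited gene length of Cox8b, 360 bases. The share within the counted exons is thus not known, and the ratio of Cox8b is uncertain. Taken singly, the isoforms Cox6a1, Cox6a2, Cox7a1, Cox7a2, Cox8a, Cox8b and Cox4i2 had log2 fold changes of -0.15 to 0.25 with TPA (adjusted p from 0.31 to 0.50) and -0.05 to 0.09 with RGRN-305 added (adjusted p from 0.56 to 0.92) under TMM. The lowest of these values was that of Cox7a1 to Cox7a2 in RGRN-305 versus vehicle, with a difference of 0.26 and no overlap (exact permutation p = 0.029, 4 mice each). Skeletal muscle markers, summed over the 16 genes listed, lay between 6615 and 13098 CPM over all libraries, so all groups held muscle RNA. Their sum ranged from 6727 to 9930 CPM in vehicle, from 6991 to 11892 in RGRN-305, from 6898 to 13098 in TPA and from 6615 to 12941 in TPA+RGRN-305 libraries, and their part in the members' values was tested only with the muscle level as a covariate, under which no count of members moved by more than 1.5 times.

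RGRN-305 versus vehicle asked what the inhibitor did without TPA. No member passed edgeR's test, nor did any of the 18991 genes (background 0.0%). The paper, using DESeq2, reported Rpl27-ps1, Tnfrsf9, Fosl1 and Epgn as differentially expressed with RGRN-305 alone, and did not regard these changes as meaningful. None of these genes is a member. At an unadjusted p under 0.05 there were 10 members and 1811 genes, and DESeq2 called 0 members as well. The members' median log2 fold change was 0.14 under TMM and 0.11 under library totals, with 90 and 86 of 96 positive, whereas the median of all genes was -0.01 and -0.04. The smallest unadjusted p-values belonged to Atp5mc1, encoding the membrane c-ring subunit of complex V (log2 0.36, adjusted p = 0.41), Uqcrb of complex III (0.38, adjusted p = 0.43) and Ndufa4 (0.31, adjusted p = 0.48). Uqcrb had 14.3, 14.2, 17.7 and 16.6 CPM in the vehicle mice and 24.7, 14.9, 19.2 and 23.2 in the RGRN-305 mice, of which the second lay within the vehicle range. Without RGRN-305 mouse 1 the members' median was 0.05.

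Members and a set of short genes outside the family varied together from library to library. The median log2 difference of the members from the vehicle mean was compared with the same measure over 699 genes that are not members. These had a deposited gene length under 1000 bases and a mean log2 CPM above 3. The members themselves are not all short: the deposited length was 3135 bases for Atp5f1a and 4126 for Sdha. Within groups, the Pearson correlation over the 28 libraries was 0.92, and it was 0.72 with the cytosolic ribosomal proteins and 0.53 with skeletal muscle markers. The relation to muscle differed between groups: it was 0.97 over the 10 TPA and 0.24 over the 10 TPA+RGRN-305 libraries, and negative over the 4 vehicle libraries. All of these points share their library and its scaling, and the correlations are given as a description. RGRN-305 mouse 1 had a median of 0.43 over the members and 0.39 over the short genes, and TPA mouse 4 had 0.34 and 0.30. The part of this shared variation in the members' differences was not tested beyond a fit with the short-gene level as a covariate, in which 12 members were higher and 29 lower with TPA, 45 higher and 12 lower with RGRN-305 added, and the median of RGRN-305 versus vehicle was 0.02. Without RGRN-305 mouse 1 and TPA mouse 4, 15 members were higher and 19 lower with TPA, and 41 higher and 12 lower with RGRN-305 added. The share of all genes past the test in these fits is not given, so the counts cannot be read as particular to the members.

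**Figure D5:**
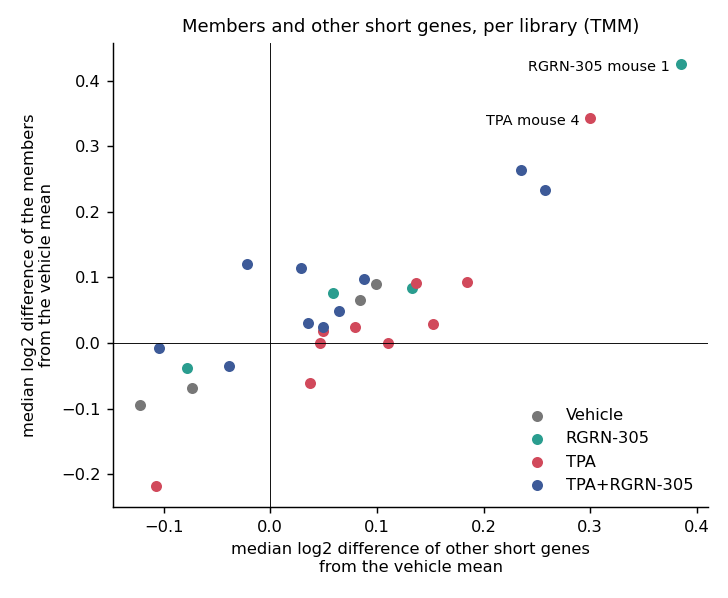
Median log2 difference of the members from the vehicle mean (vertical axis) against that of 699 short genes outside the family with a mean log2 CPM above 3 (horizontal axis) in each of the 28 libraries, by group, under TMM. The 2 measures rose together within groups, with RGRN-305 mouse 1 (0.39, 0.43) and TPA mouse 4 (0.30, 0.34) at the upper end. The groups were offset: short genes and members averaged 0.10 and 0.03 in TPA libraries, and 0.06 and 0.09 in TPA+RGRN-305 libraries.

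TPA+RGRN-305 versus vehicle asked what was left of the response to TPA in treated ears. Under TMM, 3 members were higher (background 11.7%) and 0 lower (background 10.3%), and under library totals 2 and 0 (backgrounds 10.4% and 11.9%). At an unadjusted p under 0.05 there were 13 members under TMM, and DESeq2 called 7 higher and 0 lower. Ndufaf4 was higher by 0.52 (SE 0.11, adjusted p = 0.00099) with no overlap under either scaling, and Cox7c by 0.42 (SE 0.12, adjusted p = 0.0090) with overlap, lost without vehicle mouse 1 (adjusted p = 0.067) and with the replicate block (adjusted p = 0.071). Without vehicle mouse 1 the number that were higher was 1, and without RGRN-305 mouse 1 or 2 it was 5. Atp5mc1 was higher by 0.27 (adjusted p = 0.042) under TMM and by 0.25 (adjusted p = 0.071) under library totals, and it missed the threshold without vehicle mouse 1, 2 or 3 (adjusted p = 0.17, 0.13 and 0.062), with upper-quartile factors (0.099), with no filter (0.061) and with the muscle markers as a covariate (0.052). Cycs was at 0.32 (adjusted p = 0.061). The members that fell most with TPA had small differences from vehicle here: Ndufv3 was at -0.16, Cox7a2l at -0.16, Ndufa4l2 at -0.11, Ndufaf7 at -0.05 and Cox6b2 at -0.20 (adjusted p from 0.20 to 0.73), which does not show that their levels were equal.

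The interaction term tested whether the effect of RGRN-305 differed between ears with and without TPA. Under TMM it was positive for 5 members (background 25.9%) and negative for 12 (background 25.0%), and under library totals for 33 and 2 (backgrounds 44.2% and 14.2%). Those that passed under both scalings were Cox6b2 (1.62), Ndufa4l2 (0.86), Ndufaf7 (0.49), Ndufv3 (0.48) and Cox7a2l (0.38) as positive, and Cycs (-0.88, adjusted p = 9.2e-05) and Ndufaf4 (-0.81, adjusted p = 6.1e-05) as negative. The negative count fell to 7 without RGRN-305 mouse 1 and rose to 19 without RGRN-305 mouse 2.

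Genes that work with the members outside the naming rule were read from lists. Counts in this paragraph and those that follow are to be read against the shares of all genes. With TPA these were 31.6% higher and 34.4% lower under TMM, and 20.6% and 52.5% under library totals. With RGRN-305 added to TPA they were 33.0% and 32.6% under TMM, and 55.4% and 19.3% under library totals. The 13 subunits encoded by mitochondrial DNA had 0 higher and 0 lower with TPA under TMM (0 at an unadjusted p under 0.05), and 10 were lower under library totals. With RGRN-305 added, 9 of the 13 were lower under TMM, mt-Nd6 most (by 0.54), and under library totals 0 were lower and 2 higher, so the counts turned with the scaling, although mt-Nd6 was at -0.28 (adjusted p = 0.068) there. The log2 ratio of nuclear to mitochondrially encoded subunits, which needs no scaling, averaged -2.11 in vehicle, -2.15 in RGRN-305, -2.09 in TPA and -1.92 in TPA+RGRN-305 libraries (SD 0.10, 0.16, 0.09 and 0.16), with overlap between all groups.

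Assembly factors outside the naming rule fell more often than they rose: of 53 tested, 7 were higher and 26 lower with TPA under TMM (median -0.25; 3 and 42 under library totals), and 29 were higher and 6 lower with RGRN-305 added (45 and 2). The largest changes were those of Tmem126b, a complex I assembly factor (-1.32, adjusted p = 2.0e-13), and of Uqcc3 (-1.14) and Uqcc6 (-1.12), assembly factors of complex III. With RGRN-305 added these rose by 0.82, 0.95 and 0.96 on the log2 scale relative to TPA. Of 27 genes of protein import into mitochondria, 15 were higher and 2 lower with TPA under TMM (12 and 9 under library totals), with the largest values for the small translocase chaperones Timm8a1 (1.08) and Timm10 (1.05) and the channel subunit Timm23 (0.98), and 2 higher and 13 lower with RGRN-305 added (13 and 9 under library totals).

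Among 23 transcription factors and coactivators listed for mitochondrial biogenesis, 11 were higher and 6 lower with TPA under TMM (7 and 10 under library totals). The list does not say whether each promotes or restrains biogenesis, so these counts give no direction for it. Myc (log2 2.67), the coactivator Pprc1 (2.26) and Hif1a (2.06) rose most, and with RGRN-305 added they fell by 1.27, 1.19 and 1.81. Nrf1, whose word was searched in the promoters, had 0.39 (adjusted p = 3.0e-06) under TMM and 0.11 (adjusted p = 0.11) under library totals, and Esrra, an estrogen-related receptor, fell by 0.50 (adjusted p = 8.6e-09). Cytosolic ribosomal proteins had 52 of 83 higher and 0 lower with TPA under TMM (36 and 19 under library totals). Mitochondrial ribosomal proteins had 24 of 77 higher and 22 lower (6 and 44). Enzymes of the tricarboxylic acid cycle had 8 of 18 higher and 2 lower (2 and 8), and carriers of nucleotides and phosphate 4 of 15 higher and 4 lower (2 and 9). The shares of all genes were 31.6% higher and 34.4% lower under TMM (20.6% and 52.5% under library totals). Under TMM the mitochondrial ribosomal proteins and the carriers lay near them.

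Of the cell type markers, those of neutrophils differed most clearly between the groups. All 7 neutrophil markers tested rose with TPA (31.6% of all genes under TMM) and fell with RGRN-305 added (32.6% of all genes). Their sum, over 8 genes listed, was 21.0 to 27.0 CPM in vehicle, 24.3 to 28.6 in RGRN-305, 263 to 413 in TPA and 24.4 to 72.7 in TPA+RGRN-305 libraries. Ly6g, a defining marker, was at 0 in every vehicle and RGRN-305 library. Macrophage and monocyte markers summed to 398 to 472 CPM in vehicle and 419 to 615 in TPA libraries (3 of 7 higher, 1 lower, against 31.6% and 34.4% of all genes under TMM). Keratinocyte markers, which define the epidermis, summed to 30716 to 34988 CPM in vehicle, 33988 to 37836 in RGRN-305, 29084 to 34085 in TPA and 30269 to 40613 in TPA+RGRN-305 libraries. This sum hides single keratinocyte markers that moved in opposite directions. The median of Krt14 was 3831 CPM in vehicle and 5275 in TPA libraries, and that of Krt1 422.4 and 634.8, both without overlap. The median of Krt10 was 16018 and 13456 CPM, and that of Krt5 5484 and 4768, both with overlap. Cartilage markers summed to 313 to 362 CPM in vehicle, 305 to 328 in RGRN-305, 374 to 531 in TPA and 248 to 457 in TPA+RGRN-305 libraries, so vehicle and TPA did not overlap. With TPA, 2 of 6 tested were higher and 1 lower. Beside the shares of all genes, the macrophage and cartilage counts over so few markers are not read as a result about the cell type. The sums of adipocyte, brown adipocyte, fibroblast, keratinocyte, macrophage, pericyte and skeletal muscle markers overlapped between vehicle and TPA. Anagen hair follicle markers summed to 7.84 to 10.47 CPM in vehicle and 11.99 to 97.7 in TPA libraries, without overlap. Their sum was 7.396 to 69.1 CPM in RGRN-305 and 7.38 to 213.3 in TPA+RGRN-305 libraries, which overlapped both. Their median relative to the vehicle mean overlapped between vehicle (-0.26 to 0.19 on the log2 scale) and TPA (-0.61 to 2.8). The part of these cells in the members' values was not tested, apart from the fit with the muscle level.

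Reads of overlapping genes and near-identical copies limit single values. Beside the members already described, exonic bases lie opposite another gene for, among others, Ndufa3 (62.5%, Oscar and Tfpt), Ndufs7 (49.4%, Gamt), Ndufaf2 (47.2%, B230220B15Rik), Ndufa13 (43.3%, Tssk6), Ndufaf8 (37.6%, Tepsin) and Atp5if1 (34.6%, Gm12999). The values of these members are uncertain. Gamt averaged 3.15 CPM in vehicle and 2.21 in TPA libraries, and Gm12999 0.83 and 0.20. All shares of this kind refer to exons of GENCODE M39. The deposited gene lengths were shorter: 360 bases against 2389 for Cox8b, 2755 against 7236 for Atp5mk and 908 against 1509 for Ndufb11. How much of the counted exons overlapped is therefore not known. Cox5b-ps, annotated as protein-coding and a member by its name, had 160 CPM per kilobase against 9.22 for Cox5b, and how reads were divided between them is uncertain. A further 18 genes share the name stems without being protein-coding, and their 60075 reads were not counted among the members.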

How the data were processed

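RNA was measured in 28 libraries, 1 per mouse. Per the paper's methods, the authors built strand-specific libraries, sequenced them as paired reads, aligned these to GRCm39 and assigned those that aligned once and to a single gene using Subread, whose version in the submitters' processing notes is 2.10.3. The strand setting and the annotation release of the counting are not given in the sources used here. The deposited table holds raw counts and a gene length. Identifiers were matched to GENCODE release M39 (54749 of 55414; the 665 unmatched held 0.0567% of reads).

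Genes were kept by edgeR 4.0.16 filterByExpr (minimum count 10, minimum total 15), which left 18991. All 28 libraries entered one quasi-likelihood fit with group means, with TMM factors in the main fit and library totals beside it, and p-values were adjusted by the Benjamini-Hochberg method over all genes tested, with a threshold of 0.05. Log2 CPM used a prior count of 2. Isoform ratios were log2 ratios of counts plus 0.5. Tests ran in R 4.3.3 with DESeq2 1.42.0 as an alternative, and permutation tests in SciPy 1.17.1. The fit was tested on simulated data. Where samples are replicates, p-values measure the spread between mice of the groups as deposited, and the labels do not say which of the study's independent experiments each mouse came from, so that experiment and group could not be separated.

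Members were named by a rule: the 5 highest and 5 lowest past the threshold in each comparison with TPA, the 3 smallest p in RGRN-305 versus vehicle, the most abundant member of each class, the isoform pairs, Atp5if1, Cycs, Cyc1 and the Sdh genes. Isoform partners and some of the Sdh genes are given by ratios or ranges. Of the genes so named, 1 is not reported here. Members and lists were chosen with earlier results of these data known. Same-numbered mice of different groups did not deviate together (correlations from -0.129 to 0.204), so numbers were not used as pairs.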

Additional observations from a re-analysis of the deposited data

Results flagged for a closer look

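In 160 groups of 4 or 10 libraries examined, 26 had a highest or lowest library set apart from the rest of its group by more than a standard criterion for single outlying values, which chance alone exceeds in about 1 in 20 groups. Many of them were TPA mouse 4 or RGRN-305 mouse 1, whose values are thus not separate findings. RGRN-305 mouse 1 was high in the summed TMM level of the members (8035 CPM, next 6609), in Ndufb11 (91.5 CPM, next 69.1), Sdhb (86.8, next 67.5), Sdhc (122, next 95.8) and Uqcrfs1 (118, next 87.4). TPA mouse 4 was high in the summed level under TMM (7973, next 6667) and under library totals (7134, next 5958), and in the TMM level of Atp5f1a (785, next 697), Cox6a2 (53.5, next 33.9), Cox8b (22.0, next 13.7), Cyc1 (137, next 116), Sdha (230.2, next 201), Sdhc (117, next 95.2) and Uqcrfs1 (132, next 114). Its log2 ratio of Cox6a2 to Cox6a1 was -1.06, with -1.56 next. Its skeletal muscle markers had the highest median of all 28 libraries (0.76 on the log2 scale relative to the vehicle mean).

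In the TPA+RGRN-305 group, mouse 4 was high in the log2 ratio of nuclear to mitochondrially encoded subunits (-1.53, next -1.79), in Cox7a1 (16.9 CPM, next 11.9), Cox8a (87.1, next 69.7) and Ndufa4l2 (21.9, next 17.04). Mouse 7 of that group was high in Atp5f1a (741, next 672), mouse 2 in Ndufa4 (156, next 133), and mouse 10 was low in Ndufaf7 (16.5, next 18.9). In the vehicle group, mouse 3 was low in the log2 ratio of Cox7a1 to Cox7a2 (-2.68, next -2.55), high in Atp5mk (5.17, next 3.81) and low in Cyc1 (104, next 108), and mouse 1 was high in Atp5mg (9.71, next 8.38).

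The effect of RGRN-305 differed between ears with and without TPA, by the interaction term of edgeR's quasi-likelihood fit under TMM, in 17 members. The difference was positive on the log2 scale for Cox6b2 (1.62), Ndufa4l2 (0.86), Ndufaf7 (0.49), Ndufv3 (0.48) and Cox7a2l (0.38). It was negative for Cycs (-0.88), Ndufaf4 (-0.81), Atp5mk (-0.76), Ndufa4 (-0.61), Uqcrb (-0.55), Cox7c (-0.53), Ndufa12 (-0.52), Ndufaf2 (-0.36), Uqcrfs1 (-0.33), Atp5mc3 (-0.32), Atp5f1b (-0.30) and Atp5pb (-0.30). Of the negative ones, Cycs and Ndufaf4 also passed under library totals.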

How the results depend on the processing

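Scaling moved the members' counts in several comparisons. Shares of all genes are given for TMM and library totals only. Counts under every other fit therefore have no background and cannot be read as particular to the members. For TPA versus vehicle, 17 were higher and 10 lower (median 0.02) under TMM, 4 and 57 (-0.27) under library totals, and 5 and 36 (-0.17) with upper-quartile factors. For TPA+RGRN-305 versus TPA, 27 and 13 (0.06) became 77 and 2 (0.31) and 52 and 3 (0.19). The interaction counts, 5 positive and 12 negative (-0.09), became 33 and 2 (0.20) and 10 and 6 (0.051). Under library totals the fold changes of Atp5f1a (-0.27), Cox6a1 (-0.19) and Cyc1 (-0.21) for TPA versus vehicle and of Atp5f1a (0.22), Cox6a1 (0.21) and Uqcrfs1 (0.046) for TPA+RGRN-305 versus TPA changed sign, as did Atp5f1a with upper-quartile factors (-0.17 and 0.10).

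Alternatives chosen after seeing the data were a fit without 2 libraries and one with a short-gene covariate. Without RGRN-305 mouse 1 and TPA mouse 4, 19 were lower with TPA, 41 higher with RGRN-305 added, 6 higher in TPA+RGRN-305 versus vehicle, and the interaction had 11 positive and 7 negative (median 0.072). With the short-gene level as a covariate these were 29, 45, 5 higher and 3 lower, and 18 and 6 (0.10). Among the other alternatives, requiring an absolute log2 fold change above 0.5 left 4 higher and 6 lower with TPA, 3 and 2 with RGRN-305 added, 1 higher in TPA+RGRN-305 versus vehicle, and 2 and 7 for the interaction. In TPA+RGRN-305 versus vehicle, where 3 were higher, 5 were with relative log expression factors, 7 with DESeq2 and 7 with only the groups compared in the fit. With no filter, 7 rather than 13 were lower with RGRN-305 added. The cause of these shifts was not tested.

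Leaving out 1 vehicle or RGRN-305 mouse at a time gave 10 to 19 higher and 7 to 13 lower with TPA (10 without vehicle mouse 2), 26 to 29 higher with RGRN-305 added, 1 to 5 higher in TPA+RGRN-305 versus vehicle (1 without vehicle mouse 1, 5 without RGRN-305 mouse 1 or 2), and 7 to 19 negative for the interaction (7 without RGRN-305 mouse 1, 19 without mouse 2). The difference in the ratio of Ndufa4l2 to Ndufa4 for TPA versus vehicle stayed between -1.16 and -1.12 without any 1 vehicle mouse. The adjusted exact permutation p became 0.070 with 3 mice against 10, where the test was at its smallest possible p because the groups did not overlap. With the replicate block, although numbers did not pair the mice, 14 were higher and 7 lower with TPA and 27 and 11 with RGRN-305 added, no count moving by more than 1.5 times, although the calls of Atp5if1 for TPA versus vehicle, Atp5mk for TPA+RGRN-305 versus TPA and Cox7c for TPA+RGRN-305 versus vehicle were lost. Ndufaf4, Cycs, Ndufv3, Cox7a2l, Ndufa4l2, Cox6b2 and Ndufaf7 kept their direction and passed for TPA versus vehicle and TPA+RGRN-305 versus TPA under each of the 18 alternative fits run, but Cox7a2l and Ndufaf7 did not reach an absolute log2 fold change of 0.5 with RGRN-305 added. Counts of Cox6b2 were low, which limits its precision, and depth does not limit the abundant members.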
